A study of Drosophila melanogaster with 8 samples.

Results

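The cytochrome P450 genes of Drosophila melanogaster were followed in cultured L57 cells exposed to juvenile hormone III (JH III). Members were the probe sets whose single gene symbol in the array annotation began with Cyp, a digit and then a family letter, which leaves out the cyclophilins, and the brightest probe set stood for each gene. This gave 81 genes of the 10844 genes with a single symbol on the array. All 81 had the same symbol under their gene ID in the RefSeq gene table, which holds 83 protein-coding genes with such symbols. Halloween P450 genes with older names, such as sad and dib, lie outside this rule and are described as a separate list.

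The arrays formed 4 groups of 2: the solvent DMSO, and 1 µM JH III for 3, 6 or 12 h. All groups were total RNA of L57 cells grown in serum-containing insect medium, a cultured line. The control is listed at 0 h in the series text and therefore has no time-matched counterpart for any exposure. Embryos are named in the source label of DMSO replicate 1, whereas its growth protocol describes L57 cells. The labels do not say that replicates were separate cultures, so p-values measure the spread between these arrays, which may be technical. The signals are MAS5 intensities per probe set, which the authors had brought to 1 trimmed mean, 500.1 on the intact arrays. Median signals were 79.5 to 86.0 on the JH III arrays, against 70.9 to 72.9 with DMSO. On JH III 6 h replicate 2 the file was unreadable over 3151 of 14010 probe sets, 22.5%, and these values were treated as missing. That stretch covered 17 of the 81 P450 genes, 8 of them among the genes tested.

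P450 enzymes are haem-thiolate monooxygenases that insert oxygen into steroids, fatty acids and foreign compounds. In insects they fall into 4 clans: CYP2 and mitochondrial clans that include the ecdysone-making and ecdysone-inactivating enzymes, and the large CYP3 and CYP4 clans, which hold most xenobiotic-metabolizing and fatty acid-oxidizing enzymes. Microsomal P450s take electrons from cytochrome P450 reductase and cytochrome b5, and mitochondrial ones from ferredoxin. P450s also take part in the synthesis of juvenile hormone in the corpus allatum and in the breakdown of juvenile hormone and ecdysteroids.

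Most of the family was dim in L57 cells. Of the 81 genes, 26 (32.1%) had a mean log2 value above the 40th percentile of all probe sets, a signal of 61.5, and 55 did not. Among all 10844 genes 6865 (63.3%) passed the same filter. Passing describes brightness only, since the file holds no detection calls, and the brightness of different probe sets depends on their probes and does not rank transcripts. The median P450 probe set lay at the 28.6th percentile of brightness, 34 members lay below the 25th percentile and 4 above the 75th. The other detoxication families gave 28 of 34 passing genes (82.4%) for the glutathione S-transferases and 8 of 33 (24.2%) for the UDP-glycosyltransferases.

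The 4 members above the 75th percentile were Cyp12d1-d, Cyp6a8, Cyp4e2 and Cyp9f2. Cyp12d1-d encodes a mitochondrial P450 whose transcript is inducible by foreign compounds, and Cyp6a8 a microsomal P450 likewise inducible and overproduced in some insecticide-resistant strains. Cyp4e2 belongs to the CYP4 family, whose members in other animals include fatty acid hydroxylases. Their mean signals over the readable arrays were 1974 for Cyp12d1-d, 1394 for Cyp6a8, 1341 for Cyp4e2 and 619.8 for Cyp9f2. Cyp6u1, Cyp6a16, Cyp9c1 and Cyp6a23 followed with mean signals of 520.3, 397, 364 and 352.

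By clan, 17 of 37 CYP3 genes passed (45.9%), 4 of 32 CYP4 genes (12.5%), 1 of 4 CYP2 genes and 4 of 8 mitochondrial genes. The passing CYP4 genes were Cyp4e2, Cyp4d2, Cyp4p2 and Cyp4ad1, and the single CYP2 gene was Cyp305a1. The passing mitochondrial genes were Cyp12d1-d, Cyp12b2, Cyp12a4 and Cyp12e1. Subfamilies also differed within the clans. In CYP3 all 3 Cyp6d and 5 of 13 Cyp6a genes passed, against 0 of 2 Cyp28d and 0 of 2 Cyp9b genes. In CYP4 1 of 3 Cyp4e, 1 of 3 Cyp4p and 1 of 6 Cyp4d genes passed, against 0 of 5 Cyp313a genes.

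**Figure D1:**
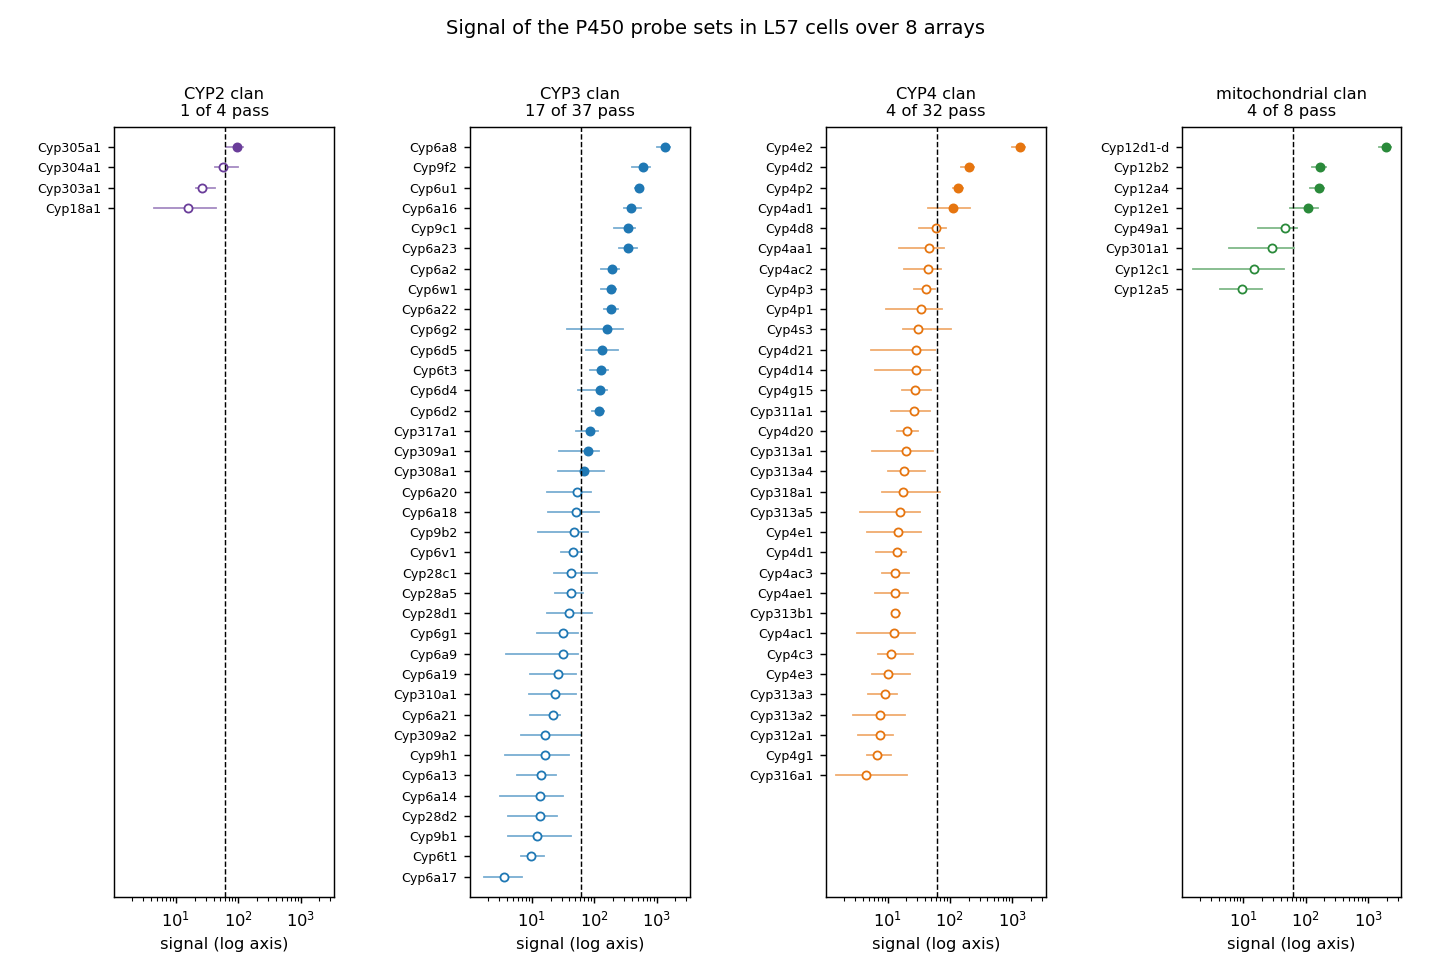
Signal (log axis) of the 81 P450 genes, 1 row per gene in a panel per clan, with the point at the back-transformed mean of log2(signal + 25) over readable arrays of all groups, the line from the lowest to the highest array and the filter signal of 61.5 dashed. Filled points pass the filter: 17 of 37 in the CYP3 clan and 4 of 32 in the CYP4 clan.

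The dim members included genes with well-known roles. Cyp18a1, the hydroxylase that inactivates ecdysteroids, gave signals of 14.4 and 6.55 with DMSO, 4.76 and 4.49 at 3 h, 28.8 and 44.4 at 6 h, and at most 29.2 at 12 h. Cyp4g1, the oenocyte enzyme that makes cuticular hydrocarbons, lay between 4.74 and 11.3 on the 8 arrays. Cyp6g1, whose overexpression gives DDT resistance, lay between 12.0 and 55.8. These values sit below the filter signal on every array, so no change of these genes was tested. Cyp4g15 (mean signal 28.1), Cyp6a9 (3.88 to 54.7) and Cyp303a1 (21.1 to 42.4) were below it throughout as well. Cyp301a1, which acts in cuticle formation, reached 65.2 on 1 array and Cyp49a1 reached 72.2. Over the 55 dim members 39 lay under the filter signal on every readable array, and the highest single value was 119, of Cyp6a18 on 1 JH III 3 h array. Just inside the filter lay Cyp309a1 and Cyp308a1, with median signals of 86.2 and 66.6. Just outside it lay Cyp4d8 and Cyp304a1, with medians of 63.6 and 51.0.

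Which members responded to the hormone was asked with 1 limma fit over all 8 arrays and 8380 probe sets (errors are standard errors, p-values are two-sided and Benjamini-Hochberg adjusted over the 8380, threshold 0.05). Of the 26 members tested, 4 rose at 3 h (15.4%) and 0 fell, where 18.8% of all probe sets were called at 3 h, 10.6% higher and 8.16% lower. At 6 h 4 rose and 0 fell, against 13.5% of all probe sets, 7.32% higher and 6.21% lower. At 12 h 2 rose and 0 fell, against 5.92% of all probe sets, 3.34% higher and 2.58% lower. At an unadjusted p under 0.05 in the same limma fit, 7, 5 and 4 members differed from DMSO at 3, 6 and 12 h, and of these 0, 0 and 1 were lower, where 32.3%, 28.6% and 22.2% of all probe sets differed in either direction. Called at 1 or more of the 3 times were 5 of the 26 members (19.2%), against 24.4% of all probe sets. The members' share of calls was thus near the background at each time. The 3 h calls of Cyp9f2 and Cyp6d5 and both 12 h calls were lost under quantile normalization and under median centring. All called changes kept their sign under quantile normalization and median centring. At 6 h quantile normalization is not a check, as JH III 6 h replicate 2 entered it without its unreadable values. With median centring Cyp6u1 fell at 3 h, with a change of -0.44, and Cyp12d1-d at 12 h, with -0.38. The genes called were Cyp6a8, Cyp4e2, Cyp9f2 and Cyp6d5 at 3 h, Cyp6a8, Cyp4e2, Cyp6a23 and Cyp6d5 at 6 h, and Cyp4e2 and Cyp9f2 at 12 h. Of these 5 genes 4 belong to the CYP3 clan and 1 to CYP4. In bulk RNA, more cells of a kind and more RNA per cell cannot be told apart.

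Cyp6a8 had the smallest adjusted p among the members at 3 and 6 h. Its signal was 1126 and 1009 with DMSO, 1670.1 and 1666 at 3 h, 1548 and 1652 at 6 h, with 1253 and 1229 at 12 h. Every JH III array was above both DMSO arrays, with the 12 h arrays the lowest of the hormone-treated ones. On the log2(signal + 25) scale it rose by 0.63 ± 0.08 at 3 h (1.55-fold, adjusted p = 0.00149) and by 0.57 ± 0.08 at 6 h (adjusted p = 0.00334). The 12 h difference of 0.21 ± 0.08 did not pass (adjusted p = 0.172).

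Cyp4e2 was the member called at all 3 times. It gave 1032 and 972 with DMSO, 1477 and 1610.2 at 3 h, 1599 on the 1 readable 6 h array, with 1309 and 1391 at 12 h. No JH III array overlapped the DMSO arrays. The rise was 0.61 ± 0.09 at 3 h (adjusted p = 0.00287), 0.66 ± 0.11 at 6 h (adjusted p = 0.00703, with 1 array at 6 h and its spread taken from the other groups), and 0.42 ± 0.09 at 12 h (adjusted p = 0.0316). The 6 h call was lost without DMSO replicate 2, at 0.62, and the 12 h call without any 1 of the DMSO, 3 h or 12 h arrays, at 0.38 to 0.46.

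Cyp9f2, a CYP3-clan gene, was represented by 2 probe sets. The brighter gave 516 and 404 with DMSO, 713 and 688 at 3 h, 605 and 625 at 6 h, with 624 and 785 at 12 h, so all JH III arrays lay above both DMSO arrays. Its changes were 0.59 ± 0.15 at 3 h (adjusted p = 0.0224), 0.41 ± 0.15 at 6 h (adjusted p = 0.0996) and 0.59 ± 0.15 at 12 h (adjusted p = 0.0494). The second probe set rose by 0.85 ± 0.15 at 3 h (adjusted p = 0.00693), 0.81 ± 0.18 at 6 h (adjusted p = 0.0247, 1 readable array) and 0.77 ± 0.15 at 12 h (adjusted p = 0.0256). Both probe sets were higher with the hormone at each time, and the call at 6 h differed between them. Without DMSO replicate 2, or without either 3 h array, the brighter probe set no longer passed at 3 h, at 0.42 to 0.62. Its 12 h call was lost without any 1 array other than 12 h replicate 1, at 0.42 to 0.76.

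Cyp6a23 gave 256 and 246 with DMSO, 365 and 372 at 3 h, 461 and 479 at 6 h, with 368 and 269 at 12 h. All JH III arrays were above DMSO, and the 6 h arrays were the highest. It rose by 0.84 ± 0.16 at 6 h (adjusted p = 0.0108). The differences of 0.51 ± 0.16 at 3 h (adjusted p = 0.0579) and 0.30 ± 0.16 at 12 h (adjusted p = 0.327) did not pass. The 6 h call was lost without either DMSO array or either 6 h array, with changes of 0.82 to 0.87.

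Cyp6d5, a CYP3-clan gene inducible by foreign compounds in flies, had the largest called change among the members. Its signal was 89.2 and 112 with DMSO, 177 and 189 at 3 h, 240.5 and 213 at 6 h, with 74.3 and 79.8 at 12 h. The 3 and 6 h arrays lay above DMSO and the 12 h arrays below it. It rose by 0.73 ± 0.22 at 3 h (adjusted p = 0.0485) and by 1.01 ± 0.22 at 6 h (2.01-fold, adjusted p = 0.0189). The 12 h difference was -0.29 ± 0.22 (adjusted p = 0.488). Its 3 h call was lost without any 1 of the DMSO, 3 h or 6 h arrays (0.60 to 0.87), and its 6 h call without any 1 of the DMSO or 6 h arrays (0.87 to 1.14).

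**Figure D2:**
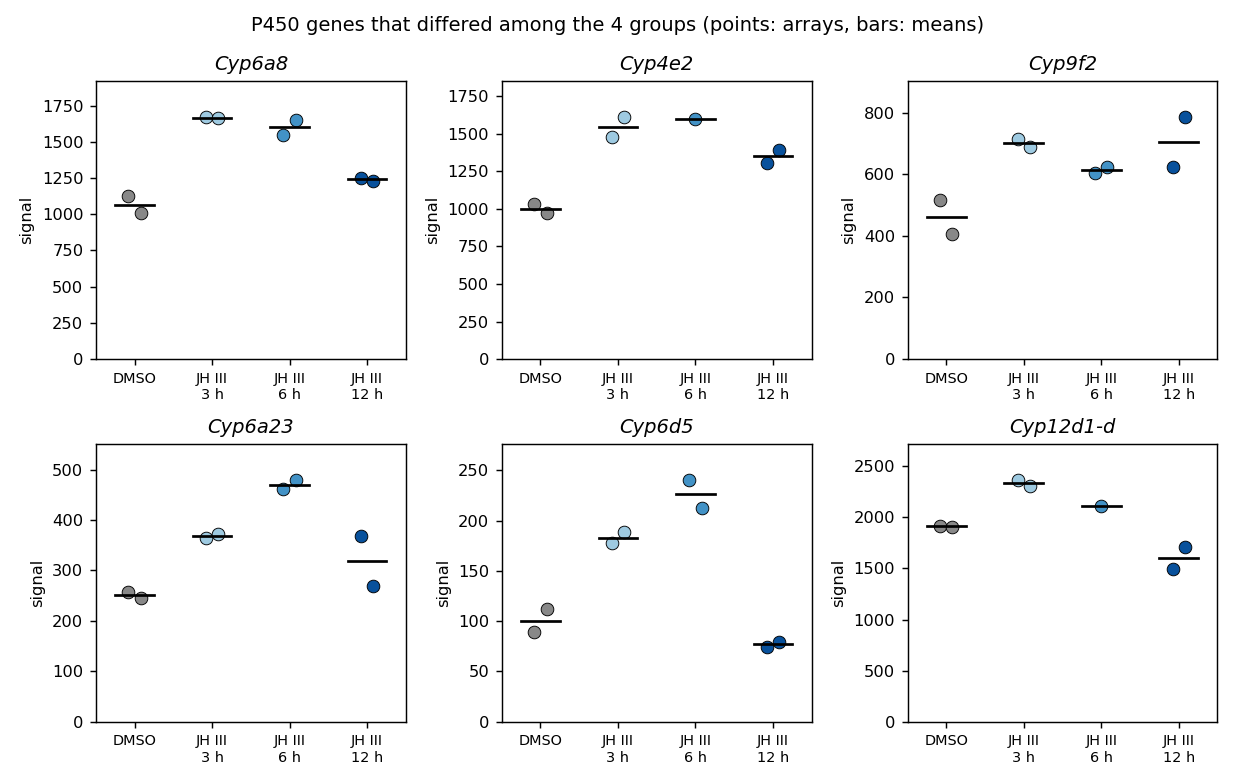
Signal on each readable array (linear axis from 0) of the 6 members called in any comparison against DMSO or among the 4 groups, from DMSO to JH III 12 h, with bars at group means. Cyp6d5 peaks at 6 h, at 240.5 and 213, and is lowest at 12 h, at 74.3 and 79.8; Cyp4e2 and Cyp12d1-d have 1 readable array at 6 h.

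Averaged over the 3 exposures, 4 members rose against DMSO and 0 fell (Cyp6a8, Cyp4e2, Cyp9f2 and Cyp6a23), where 14.5% of all probe sets were called, 7.96% higher and 6.52% lower. That count was 0 without DMSO replicate 2. Any difference among the 4 groups was called for 6 members, 23.1% of those tested, against 23.5% of all probe sets. The sixth was Cyp12d1-d (adjusted p = 0.0125), which did not pass against DMSO at any single time. Its signal was 1915 and 1908 with DMSO, 2366 and 2308 at 3 h, 2109 on the 1 readable 6 h array, with 1498 and 1714 at 12 h. The 3 h arrays were above DMSO and the 12 h arrays below it. Its changes were 0.29 ± 0.08 at 3 h (adjusted p = 0.0503), 0.14 ± 0.10 at 6 h (adjusted p = 0.428) and -0.25 ± 0.08 at 12 h (adjusted p = 0.127). The 3 h rise passed in 6 of 18 alternatives, among them an added constant of 100, a filter at the 60th percentile and only the groups compared. It did not pass in the other 12, among them quantile normalization, median centring, no added constant, no filter, no variance trend and the replicate block. Cyp12d1-d and its neighbour Cyp12d1-p are near-identical duplicates, so the signal of a probe set cannot be assigned between them with certainty. A further probe set annotated to both was left out by the rule. That one gave 730.1 and 625 with DMSO, 825 and 924 at 3 h, 933 and 1048 at 6 h, with 635 and 819 at 12 h, and rose by 0.53 ± 0.14 at 6 h (adjusted p = 0.0368). It did not pass at 3 h (0.36 ± 0.14, adjusted p = 0.110) or 12 h (0.09 ± 0.14, adjusted p = 0.764). The 12 h sign was opposite to that of Cyp12d1-d. Nor did it pass for 12 against 3 h (-0.27 ± 0.14, adjusted p = 0.233) or 12 against 6 h (-0.44 ± 0.14, adjusted p = 0.0671). Between 6 and 3 h neither probe set passed the test, at -0.15 ± 0.10 for that of Cyp12d1-d (adjusted p = 0.645, 1 readable array at 6 h) and 0.17 ± 0.14 for the shared one (adjusted p = 0.695).

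The test between exposure times found 3 members lower at 12 h than at 3 h (Cyp12d1-d, Cyp6a8 and Cyp6d5), with 16.5% of all probe sets called, 9.02% lower and 7.48% higher. It found 5 lower at 12 h than at 6 h (those 3, Cyp12e1 and Cyp308a1), with 14.3% of all probe sets called, 7.37% lower and 6.95% higher, and 0 members higher in either. Cyp308a1 would not have passed the brightness filter without its 6 h arrays: over the 6 other arrays its mean corresponded to a signal of 53.8, under the 61.5 of the filter. Keeping a member by its bright group favours a difference of that group, so its values are a description and the 12 against 6 h count rests on the other 4. The remaining 25 tested members passed the filter without any 1 of the groups. Between 6 and 3 h 0 members were called, with 0 at an unadjusted p under 0.05 in the limma fit and 0.0597% of all probe sets called, 0.0239% higher and 0.0358% lower. Cyp308a1, a CYP3-clan gene, gave 26.7 and 33.6 at 12 h, against 113 and 146 at 6 h, a difference of -1.48 ± 0.39. Cyp6d5 differed by -1.30 ± 0.22 between 12 and 6 h (adjusted p = 0.00547) and by -1.03 ± 0.22 between 12 and 3 h (adjusted p = 0.0147). Cyp12e1, a mitochondrial P450, gave 56.1 and 73.4 at 12 h, against 130.2 and 157 at 6 h, a difference of -0.91 ± 0.26 (adjusted p = 0.0490), and this call was lost without any 1 of the 8 arrays, at -1.05 to -0.77. The comparisons share the 12 h arrays, so their values are not independent of each other.

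**Figure D3:**
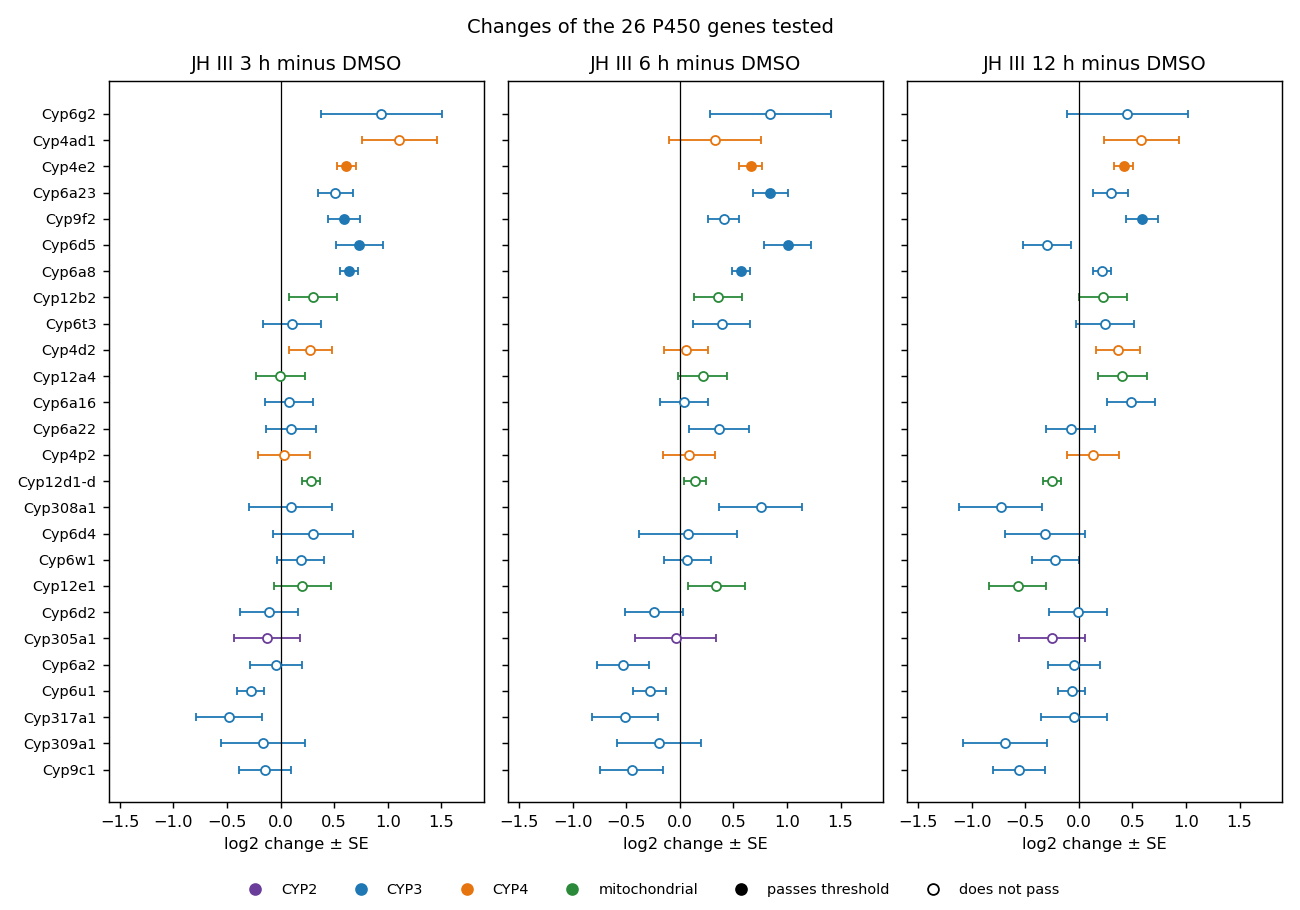
Log2 change ± SE of the 26 tested members at 3, 6 and 12 h against DMSO, 1 row per gene coloured by clan and ordered by the mean change; filled points pass the adjusted threshold. All filled points lie to the right of 0: 4 at 3 h, 4 at 6 h and 2 at 12 h.

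Members outside the calls were described by the 4 largest changes in each direction at each time. The highest at 3 h was Cyp4ad1, a CYP4 gene, at 208 and 151 with the hormone, against 102 and 44.5 with DMSO. Its difference of 1.11 ± 0.35 missed the threshold (adjusted p = 0.0627) and passed in 2 of the 17 alternatives that tested it. It was 1.54 without DMSO replicate 1 and 0.67 without DMSO replicate 2. Cyp6g2, a CYP3-clan gene known for expression in the corpus allatum, gave 0.94 ± 0.56 at 3 h and 0.85 ± 0.56 at 6 h. Its 2 DMSO arrays disagreed, at 236 and 36.6, so its sign at 3, 6 and 12 h turned without DMSO replicate 2. Without DMSO replicate 1 it passed at 3 h, at 1.98 (adjusted p = 0.0194), and at 6 h, at 1.89 (adjusted p = 0.0304). On the low side Cyp317a1 gave -0.49 ± 0.31 at 3 h and Cyp6a2, another xenobiotic-inducible gene, gave -0.53 ± 0.24 at 6 h. At 12 h the lowest were Cyp308a1 at -0.73 ± 0.39, Cyp309a1 at -0.69 ± 0.39, Cyp12e1 at -0.57 ± 0.26 and Cyp9c1 at -0.56 ± 0.24. None of these changes against DMSO passed.

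Several bright members, and others named for their known roles, were not called at any time. Cyp6u1 gave 565 and 580.3 with DMSO, 455 and 481 at 3 h, 467 on the 1 readable 6 h array, with 506 and 588 at 12 h. Its 3 h arrays lay below DMSO, with a difference of -0.28 ± 0.12 (adjusted p = 0.165), and the 12 h arrays lay on both sides of it. Cyp9c1 gave 412 and 452 with DMSO, 379.5 and 398 at 3 h, 309.4 on the 1 readable 6 h array, with 386 and 209.9 at 12 h. Every hormone-treated array was thus below DMSO for this CYP3-clan gene, and the 12 h arrays differed most from each other. Cyp6a16 gave 371 and 326 with DMSO, 298 and 454 at 3 h, 309.7 and 414 at 6 h, with 435 and 568 at 12 h. Only at 12 h did its arrays lie apart from DMSO, at 0.49 ± 0.22 (adjusted p = 0.241). Cyp12a4, whose overexpression gives lufenuron resistance, differed by -0.0037 ± 0.23, 0.21 ± 0.23 and 0.41 ± 0.23 at 3, 6 and 12 h. Cyp6t3, which takes part in ecdysone synthesis, differed by 0.11 ± 0.27, 0.39 ± 0.27 and 0.24 ± 0.27.

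Intervals show how much the arrays could resolve. Among members not called, the 95% interval of the change lay within a 2-fold change in either direction for 17 of 22 at 3 h, 13 of 22 at 6 h and 17 of 24 at 12 h. Widest was Cyp6g2, at 1.27 log2 units either side. Over the 26 members the median change was 0.15 at 3 h, 0.18 at 6 h and -0.03 at 12 h, against 0.03, 0.05 and 0.00 over all 8380 probe sets. With median centring the members' medians were -0.01, 0.03 and -0.15, against -0.13, -0.10 and -0.12 over all probe sets. Every 3 h array lay above both DMSO arrays for 10 members and below them for 3, where 34.6% and 27.8% of all probe sets did so. At 6 h 9 of 18 members readable on both arrays lay above and 2 below, against 32.9% and 24.2% of probe sets. At 12 h 7 members lay above and 5 below, against 26.1% and 25.6% of all probe sets.

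P450 genes lie close together in the genome, so neighbours were compared. The RefSeq table places 43 genes in 15 runs of adjacent genes with Cyp symbols. P450 genes with older names, such as sad and dib, were counted as other genes there. In the longest run, of 9 genes, 4 passed the filter and 2 were called against DMSO at 1 or more times, Cyp6a8 and Cyp6a23, beside the 24.4% of all probe sets so called. Between and around them Cyp6a17, Cyp6a19, Cyp6a9, Cyp6a20 and Cyp6a21 were dim, and Cyp6a22 and Cyp317a1 were tested and not called. Beside Cyp4e2, Cyp4ad1 was tested and not called and Cyp4e1 was dim. The run thus held both dim members and 1 of the 4 members above the 75th percentile.

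**Figure D4:**
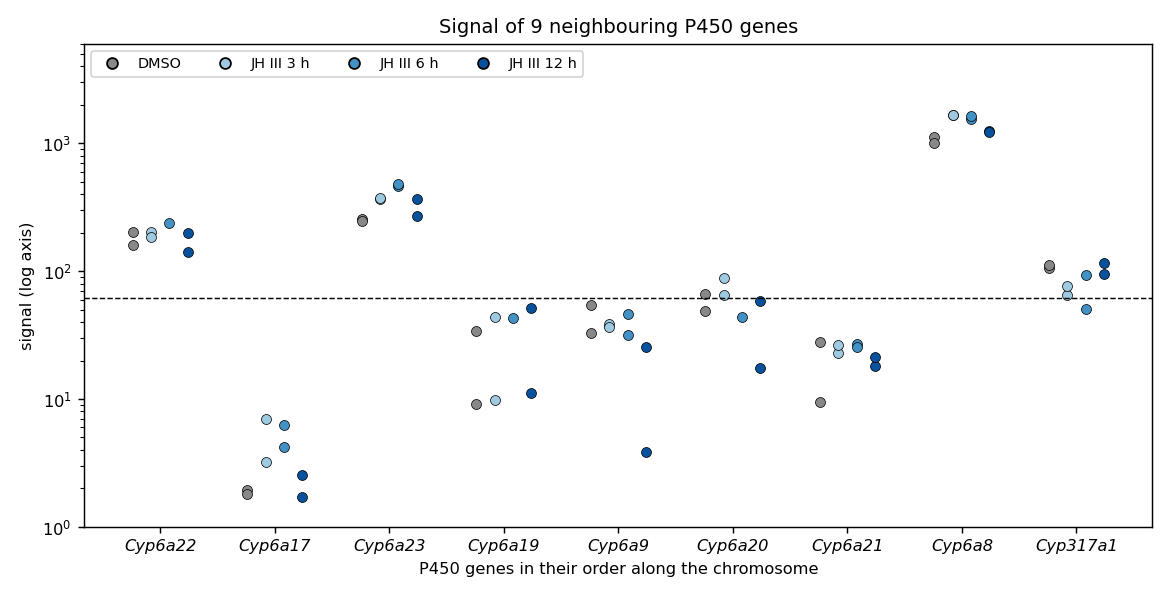
Signal (log axis) of the 9 genes of the longest run of neighbouring P450 genes, in RefSeq order, with 1 point per readable array coloured by group and the filter signal of 61.5 dashed. Cyp6a8 and Cyp6a23 lie above the line on every array, whereas Cyp6a17, Cyp6a19, Cyp6a9 and Cyp6a21 lie below it on every readable array.

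The enzymes that work with P450s were followed as lists of their own, in the main fit only. Of the redox partners 4 of 6 listed genes were matched by a probe set with that single symbol, and all 4 passed. Of these 1 rose and 0 fell at each time, beside the 10.6%, 7.32% and 3.34% of all probe sets that were higher at 3, 6 and 12 h. Fdx1, a mitochondrial ferredoxin, gave 1045 and 1218 at 3 h and 1271 and 1395 at 6 h, against 800.0 and 790.2 with DMSO, and rose by 0.49 ± 0.11 (adjusted p = 0.0155) and 0.73 ± 0.11 (adjusted p = 0.00395). Cyt-b5, the microsomal electron carrier, rose at 12 h by 0.51 ± 0.06 (adjusted p = 0.00328), at 7897 and 7792 against 5428 and 5603 with DMSO. Of the haem genes 7 of 10 listed were matched and all passed. At 3 h 3 fell, where 8.16% of all probe sets were lower, and at 6 h 1 fell, where 6.21% were. Urod gave 1777 and 1837, against 2604 and 2594 with DMSO, a change of -0.52 ± 0.07 (adjusted p = 0.00118). Ppox changed by -0.51 ± 0.10 (adjusted p = 0.00904) and Coprox by -0.25 ± 0.07 (adjusted p = 0.0491). These genes encode late steps of haem synthesis, and Urod also fell at 6 h, with a change of -0.42 ± 0.07 (adjusted p = 0.00445).

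Among 14 listed regulators 11 passed, 2 rose at 3 h, 3 at 6 h and 0 at 12 h, and 0 fell, beside the same 10.6%, 7.32% and 3.34% of all probe sets higher. The gene cnc, the Nrf2 homologue that activates xenobiotic-response genes, rose by 0.53 ± 0.12 at 3 h (adjusted p = 0.0188) and 0.83 ± 0.15 at 6 h (adjusted p = 0.00966, 1 readable array). Hnf4, a nuclear receptor of lipid metabolism, rose by 0.51 ± 0.15 at 3 h (adjusted p = 0.0474) and 0.84 ± 0.15 at 6 h (adjusted p = 0.00865). The gene tgo, the ARNT homologue, rose by 0.67 ± 0.12 at 6 h (adjusted p = 0.0107, 1 readable array). The JH receptors Met and gce and the JH-responsive gene Kr-h1 passed the filter and were not called at any time. EcR was dim, at a mean signal of 50.4, and was not tested. Of the 8 ecdysone synthesis genes 5 were matched and 1 passed, sad, a mitochondrial P450, with 0 called.

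**Figure D5:**
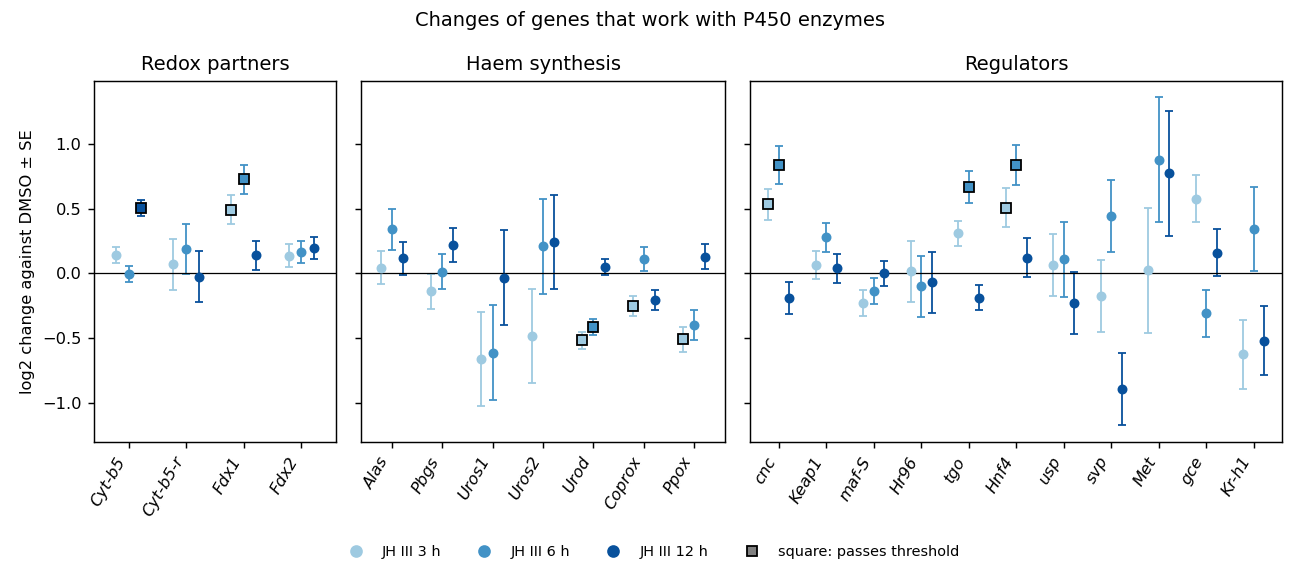
Log2 change against DMSO with standard errors of the redox partners, haem genes and regulators that passed the filter, at 3, 6 and 12 h, where squares pass the adjusted threshold. Fdx1, cnc and Hnf4 pass at 3 and 6 h on the high side, and Urod on the low side.

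Other cell types were checked through marker lists. Of 14 matched hemocyte markers 10 passed, 6 rose at 3 h, 3 at 6 h and 0 at 12 h, where 10.6%, 7.32% and 3.34% of all probe sets were higher. Hml, the hemolectin gene, rose by 0.87 at 3 h (adjusted p = 0.000135) and 0.88 at 6 h (adjusted p = 0.000194), and Ppn by 0.92 (adjusted p = 0.000482) and 0.65 (adjusted p = 0.00250). The GATA factor gene srp rose by 0.57 at 3 h (adjusted p = 0.0141) and 0.76 at 6 h (adjusted p = 0.0140, 1 readable array). Pxn, Col4a1 and vkg rose at 3 h, by 0.31, 0.43 and 0.48. The hemocyte markers' summed signal over the 11 markers readable on all arrays was 10220 to 10318 with DMSO, 15196 to 15226 at 3 h, 13782 to 14111 at 6 h and 9298 to 10041 at 12 h. The list was thus highest at the times when the early P450 genes were highest, and its part in their changes was not tested. The hemocyte markers NimC1, eater, Sr-CI and lz were dim, at mean signals of 8.53, 51.5, 6.19 and 5.65. Of 7 fat body markers 4 passed and 0 were called. Of 5 neuron markers and 3 Malpighian tubule markers 0 passed, and the corpus allatum gene jhamt did not pass. The actin 3'/5' log2 ratio was higher by 0.19, 0.19 and 0.20 at 3, 6 and 12 h than with DMSO, whereas that of Gapdh differed by -0.03, 0.06 and 0.01 and that of eIF-4a by 0.29, 0.07 and 0.17; the part of RNA quality was not tested.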

How the data were processed

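Biotin-labelled total RNA of L57 cells was hybridized to 8 Affymetrix Drosophila arrays, 2 in each of 4 groups. The deposited values are linear signal intensities for each probe set, made by the authors with MAS5 per the submitters' processing notes (version not given). Aligners and a genome build do not apply, and background correction could not be redone from signals. On JH III 6 h replicate 2 the values of 3151 probe sets were unreadable and were set to missing. At 6 h, 2611 tested probe sets therefore rest on 1 array, and their error takes its spread from the other groups. Genes were named from the array annotation and looked up by gene ID in the RefSeq table of assembly Release 6 plus ISO1 MT, which was used for names and neighbours only; probes were not realigned.

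Values were analysed as log2(signal + 25). After removal of 44 controls, a filter at the 40th percentile of the mean log2 value removed 5586 probe sets and kept 8380. A fold change on this scale understates that of dim genes. The 4 group means were fitted over all arrays with limma (version 3.58.1, under R 4.3.3), using a variance trend, and p-values were adjusted by Benjamini-Hochberg. The fit was tested on simulated data. Arrays were treated as unpaired. The number of arrays limits the precision. Alternatives were other scalings, constants, filters, missing-value rules, a replicate block and each array left out. Calls were followed through them for the P450 members only. Those of the partner, haem, regulator, marker and other lists were not checked this way.

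The members, lists and tests were chosen with earlier results of these data known. Named members were those called in any comparison, the 12 brightest, the 4 largest changes in each direction at each time, a set with known roles, and the 2 nearest on each side of the filter. Marker lists covered hemocyte, fat body, midgut, Malpighian tubule, oenocyte, prothoracic gland, corpus allatum, neuron, muscle and germline. No sequences are printed, as no sequence table was used here.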

Additional observations from a re-analysis of the deposited data

Results flagged for a closer look

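Some P450 genes differed between exposure times by the test of that difference in the limma fit (log2 scale, 2 arrays a time, adjusted p-values). Between 12 and 3 h the differences were -0.54 for Cyp12d1-d (adjusted p = 0.00473), -0.42 for Cyp6a8 (adjusted p = 0.0104) and -1.03 for Cyp6d5 (adjusted p = 0.0147). Between 12 and 6 h they were -0.39 for Cyp12d1-d (adjusted p = 0.0421, 1 readable array at 6 h), -0.36 for Cyp6a8 (adjusted p = 0.0221), -1.30 for Cyp6d5 (adjusted p = 0.00547) and -0.91 for Cyp12e1 (adjusted p = 0.0490). Cyp308a1 differed by -1.48, given as a description only, since it would not have passed the brightness filter without its 6 h arrays. In every one of these the 12 h arrays were the lower. The probe set annotated to both Cyp12d1-d and Cyp12d1-p did not pass in either comparison. Its differences were -0.27 between 12 and 3 h and -0.44 between 12 and 6 h. Cyp6d5 between 12 and 6 h passed in 19 of the 19 alternatives that tested it, and the filter at the 60th percentile left it out. Between 12 and 3 h, the calls of Cyp6a8 and Cyp6d5 were lost without either 3 h array, at -0.42 for Cyp6a8 and at -1.07 and -0.99 for Cyp6d5. Between 12 and 6 h, that of Cyp6a8 was lost without 6 h replicate 2 (-0.31) or 12 h replicate 2 (-0.35), and that of Cyp12d1-d without either DMSO array, either 3 h array (-0.39) or 12 h replicate 1 (-0.30). The cause of these differences was not tested, and the 12 h arrays also had higher hybridization controls, by 0.53 over DMSO, against 0.14 at 3 h and 0.04 at 6 h.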

How the results depend on the processing

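Cyp6a8 passed at 3 and at 6 h in 19 of 20 alternatives each, and Cyp4e2 passed at 3 h in 17 of 18. Alternatives whose filter or missing values left a gene untested are not counted for that gene. Calls that passed in 5 or fewer alternatives were Cyp12e1 for 12 against 6 h (3 of 19), Cyp9f2 at 12 h (4 of 20), Cyp6d5 at 3 h (5 of 19) and Cyp4e2 at 12 h (5 of 18). The counts of members called were 4 at 3 h, 4 at 6 h, 2 at 12 h, 4 for the mean, 6 among the groups, 3 for 12 against 3 h and 5 for 12 against 6 h. With quantile normalization they were 2 at 3 h, 0 at 12 h, 2 for the mean, 1 for 12 against 3 h and 2 for 12 against 6 h. With median centring they were 1 at 12 h (Cyp12d1-d, lower), 2 for the mean and 3 for 12 against 6 h. The 12 h count was 1 with no added constant, and 0 with no filter, no variance trend, only the groups compared, the replicate block, or probe sets readable on all arrays. The count for 12 against 6 h was 2 with no filter or no trend, 3 with the 60th percentile filter, the replicate block or readable probe sets, and 1 with only the groups compared. Cyp308a1, kept in the main fit by its 6 h arrays, is included in several counts for 12 against 6 h. Those are of the main fit, quantile normalization, median centring, the replicate block and readable probe sets. It is also included where either 3 h array was left out. Each such count rests on the other members. Without the trend 2 members were called for the mean and 2 among the groups, and with readable probe sets 2 were called at 3 h. Same-numbered arrays did not deviate together (correlations of deviations from -0.047 to 0.066), which does not tell whether they were handled together. The replicate block changed no other count by over 1.5 times. Members passing numbered 81 with no filter and 8 at the 60th percentile.

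Keeping the unreadable zeros as values left 0 members called at 3, 6 and 12 h, for the mean, among the groups and for 12 against 3 h, and 1 for 12 against 6 h. It turned Cyp12d1-d to -3.07 and Cyp4e2 to -2.35 at 6 h, and to 2.82 and 2.77 for 12 against 6 h. Leaving out 1 array gave 2 to 6 at 3 h, 1 to 4 at 6 h, 0 to 2 at 12 h, 0 to 5 for the mean, 2 to 7 among the groups, 1 to 5 for 12 against 3 h, 2 to 3 for 12 against 6 h and 0 for 6 against 3 h. The count for the mean was 0 without DMSO replicate 2, and that at 6 h was 1 without DMSO replicate 2 or without JH III 6 h replicate 1, which also drops the probe sets unreadable on replicate 2. Cyp309a1 at 3 h ranged from -0.36 without DMSO replicate 2 to 0.025 without DMSO replicate 1. Cyp6g2 became -0.10, -0.19 and -0.59 at 3, 6 and 12 h without DMSO replicate 2, and 1.98, 1.89 and 1.49 without replicate 1. Median centring moved the median of all probe sets by -0.16, -0.16 and -0.13 at 3, 6 and 12 h and the share of calls that were higher to 26.4%, 23.4% and 20.4%, against 56.5%, 54.1% and 56.5%. Quantile normalization gave 63.1%, 80.6% and 70.4%, and moved the median of all probe sets by -0.06, 0.10 and -0.02. Its results that involve 6 h are not a check of the calls, because JH III 6 h replicate 2 entered with values missing. The trimmed mean of that array was 376.2, against 500.1 on the intact arrays. Without the unreadable stretch, the intact arrays had trimmed means of 373.6 to 379.9. The causes of these changes in medians and shares were not tested.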

Other observations

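The glutathione S-transferases and UDP-glycosyltransferases, which act on the products of P450s, were counted beside them. Of 28 tested glutathione S-transferase genes 4 rose and 2 fell at 3 h, 4 rose and 3 fell at 6 h, and 3 rose and 2 fell at 12 h. Among all probe sets the 3 h comparison called 10.6% higher and 8.16% lower. The 6 h comparison called 7.32% higher and 6.21% lower, and that of 12 h called 3.34% higher and 2.58% lower. Of 8 tested UDP-glycosyltransferase genes 2 rose at 3 h, 1 at 6 h and 0 at 12 h, and 0 fell, beside the same shares. Jheh2, a juvenile hormone epoxide hydrolase, passed the filter with a mean signal of 4380 and was not called at any time, at -0.06, -0.11 and 0.20. Of the other marker lists, 1 of 6 midgut, 2 of 4 oenocyte, 1 of 3 prothoracic gland, 1 of 4 muscle and 2 of 4 germline markers passed, and 1 of these, bam, rose at 6 h by 0.25 (adjusted p = 0.0367).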
